A study of Sus scrofa with 102 samples.

Results

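*IFIT3*, *RSAD2* and *IFI44L* are interferon-induced genes that were measured in *Longissimus dorsi* muscle of 102 backcross pigs. They were taken as every probe that the array annotation assigns to 1 of these 3 symbols. This gave 6 of the 5493 deposited probes, for 3 of the 2201 named genes. *IFIT3* had 1 probe. *RSAD2* had 2, the second of which (AFFX-Ss_IRP_3_at) carries the prefix of a control. *IFI44L* had 3. The probe with the highest mean over the 102 arrays stands for each gene, and its other probes are numbered after it in order of their means. The 3 genes were chosen by these same values, for moving together among the pigs and differing with slaughter batch and carcass weight. Those results are therefore given here as a description without a test. Other probes that moved with or against them were sought in the same values, so p-values for such movement are no separate check.

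The pigs, 55 females and 47 males, came from Iberian x Landrace F1 boars mated to Landrace sows and were fed ad libitum. No pig was treated. They were slaughtered in 3 batches, at 171 to 184 days of age and carcass weights of 43.6 to 97.8 kg. Batch 1 held 8 females and 6 males (65.9 ± 10.2 kg, SD), batch 3 held 11 females and 7 males (64.6 ± 11.7 kg), and batch 2, the largest, held 36 females and 34 males (73.3 ± 8.85 kg). Batch 1 was also the youngest, with ages of 171 to 181 days, against 178 to 181 days in batch 3 and 178 to 184 days in batch 2. Many of the pigs share parents, and their pedigree was not used here.

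Cells that detect viral RNA or DNA release type I interferons, which bind a receptor on the same and on neighbouring cells. Signalling from the receptor then switches on a large set of interferon-stimulated genes. *IFIT3* encodes an adaptor that stabilises IFIT1, a protein that binds viral RNA with an unusual cap. *RSAD2* encodes viperin, an enzyme that makes a chain-terminating nucleotide. *IFI44L* encodes an interferon-induced protein with reported antiviral activity in cultured cells. In muscle such genes can be expressed by the fibres themselves and by the endothelial, connective tissue and immune cells between them. In a bulk sample a change in the number of such cells and a change in the RNA of each cell cannot be told apart.

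The values are log2 intensities. Values around 3 are close to the lowest that many probes reach on these arrays. Arrays carry no counts, so precision rests on how many pigs each batch held. The tissue label fitted its markers: the mean over 9 measured skeletal muscle fibre genes lay between 11.44 and 13.33 in batch 1, between 11.40 and 12.84 in batch 3 and between 10.99 and 13.46 in batch 2. Batches differed over most of the deposited probes, which the study had chosen for their variability among the pigs. Of the 5450 tested probes, 86.6% passed an adjusted p of 0.05 for slaughter batch in a limma fit with sex and carcass weight. Those that passed with positive fitted differences from batch 2 in both batches 1 and 3 were 36.5% of all tested probes. Those that passed with negative fitted differences in both were 45%. The difference between the 5′ and middle probes of the actin control, which falls when RNA is degraded or incompletely copied, had a median of -1.38 in batch 1, -1.32 in batch 3 and -0.77 in batch 2. The array that agreed least with the others, from a male of batch 3, had a median correlation of 0.748 with them and an actin difference of -2.43. The probes that differed most between the labelled sexes in these data, 3 in each direction, went against the label on 1 array.

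*IFIT3* was low in most pigs of batch 2 and higher in most pigs of the other batches. Its log2 intensity ranged from 3.36 to 7.54 in the 14 pigs of batch 1, with a median of 5.77. It ranged from 3.49 to 6.64 in the 18 pigs of batch 3, with a median of 5.46. Among the 70 pigs of batch 2 the median was 3.48, the extremes were 2.61 and 6.53 and the interquartile range was only 0.42. The batches overlapped, but 13 of 14 pigs of batch 1 and all 18 of batch 3 lay above the median of batch 2, and 4 pigs of batch 1 and 2 of batch 3 lay above its highest pig. Batch 1 fell on both sides of a gap: 5 pigs had values of 3.36 to 3.91, within the range of batch 2, and 9 had values of 5.63 to 7.54. By age in batch 1, the 5 pigs of 171 days had 5.63 to 7.54, the 8 of 177 days 3.36 to 7.26 and the 1 of 181 days 3.71. The part of age in the gap was not tested. In the fit with sex and weight *IFIT3* was 1.71 higher in batch 1 than in batch 2 (standard error 0.27, a 3.28-fold difference) and 1.43 higher in batch 3 than in batch 2 (0.25, 2.69-fold). The difference between batches 3 and 2 was 1.74 (0.31) in females alone and 0.89 (0.39) in males alone.

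*RSAD2* showed the same order of batches with a wider spread. It ranged from 3.70 to 8.88 in batch 1 (median 7.22), from 3.36 to 7.85 in batch 3 (median 6.15) and from 3.34 to 8.32 in batch 2 (median 4.61). Here 11 of 14 pigs of batch 1 and 15 of 18 of batch 3 were above the median of batch 2, and 3 and 0 were above its highest pig. The fitted difference was 1.74 between batches 1 and 2 (standard error 0.34, 3.34-fold) and 0.99 between batches 3 and 2 (0.31, 1.98-fold). Between batches 3 and 2 it was 1.11 (0.41) in females alone and 0.63 (0.49) in males alone. The second probe of *RSAD2* gave 1.49 (0.25) and 0.56 (0.23), with a median of only 3.60 in batch 2.

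*IFI44L* was also higher in most pigs of batches 1 and 3 than in most pigs of batch 2. It ranged from 6.34 to 8.81 in batch 1 (median 7.86), from 6.69 to 8.50 in batch 3 (median 7.94) and from 4.01 to 8.12 in batch 2 (median 6.42). In batch 1 13 of 14 pigs, and in batch 3 all 18, exceeded the median of batch 2, and 6 pigs of each exceeded its highest pig. The largest gap within batch 1 was only 0.35 for *IFI44L*, against 1.72 for *IFIT3*. For *RSAD2* it was 1.33, with 7 pigs on each side. The lowest pigs of batch 2, males at 4.01 and 4.10, lay 0.79 below the next pig of their batch. The fitted difference was 1.24 between batches 1 and 2 (standard error 0.22, 2.36-fold) and 1.26 between batches 3 and 2 (0.20, 2.39-fold). The other probes of *IFI44L* gave 0.80 and 0.89 for batch 1 and 0.73 and 0.96 for batch 3, each against batch 2.

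**Figure D1:**
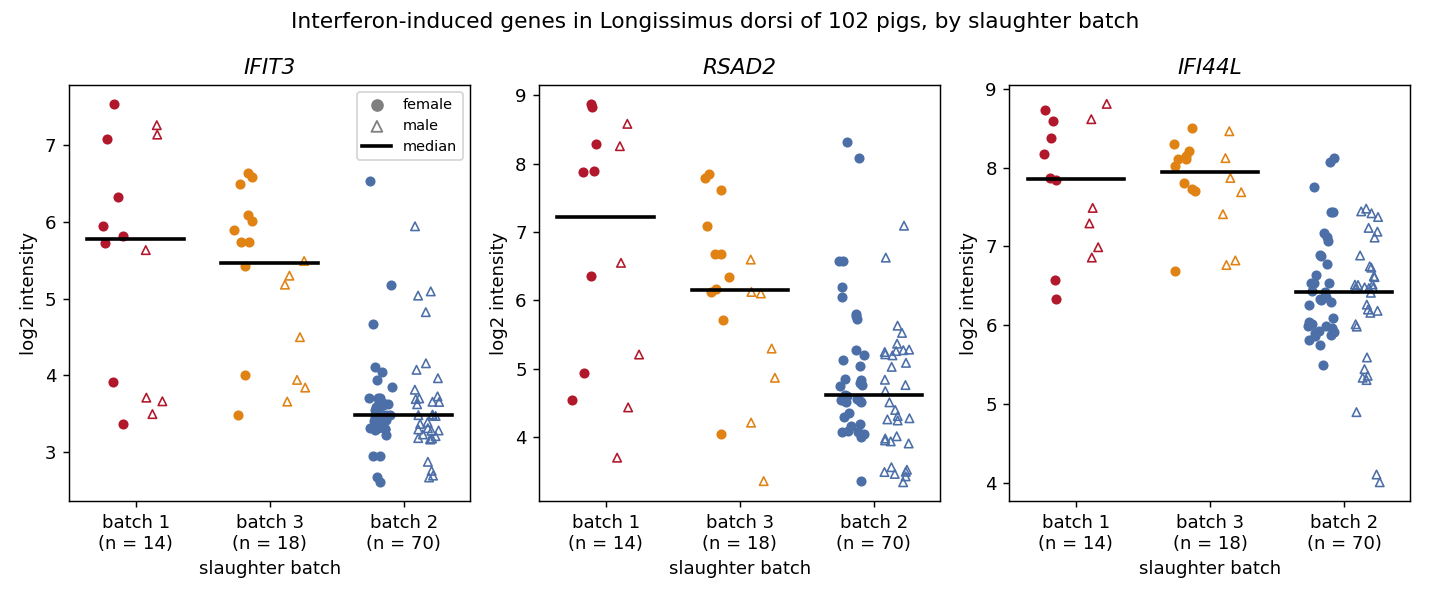
Log2 intensity of the main probe of *IFIT3*, *RSAD2* and *IFI44L* (y axis) in each pig, by slaughter batch (x axis), with females as filled circles, males as open triangles and the batch median as a black line. The medians were 5.77, 5.46 and 3.48 for *IFIT3*, 7.22, 6.15 and 4.61 for *RSAD2* and 7.86, 7.94 and 6.42 for *IFI44L* in batches 1, 3 and 2, and the 5 low pigs of batch 1 stand apart for *IFIT3*.

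Batch accounted for 43.9% of the variance of *IFIT3*, 27.7% of that of *RSAD2* and 43.2% of that of *IFI44L*, against a median of 30.3% over all tested probes. The spread within batches differed too. The SD of *IFIT3* was 1.55 in batch 1, 1.06 in batch 3 and 0.69 in batch 2, so that batch 1 had 2.24 times the SD of batch 2. For *RSAD2* the SD was 1.86 in batch 1, 1.28 in batch 3 and 1.02 in batch 2, a ratio of 1.82 for batch 1 over batch 2. For *IFI44L* it was 0.84 in batch 1, 0.56 in batch 3 and 0.77 in batch 2, a ratio of 1.09. The median ratio over all tested probes was 0.98 for batch 1 over batch 2. Age differed between the batches as well. With age in the fit, the difference between batches 1 and 2 was 1.18 for *IFIT3* (standard error 0.37), 1.33 for *RSAD2* (0.48) and 0.76 for *IFI44L* (0.30). Without the 5 pigs farthest from each gene's median it was 1.00 for *IFIT3* (0.28), 1.03 for *RSAD2* (0.37) and 0.91 for *IFI44L* (0.21). With the actin difference in the fit, it was 1.43 for *IFIT3* (0.29), 1.61 for *RSAD2* (0.38) and 0.93 for *IFI44L* (0.23). In that fit the difference between batches 3 and 2 was 1.12 for *IFIT3* (0.28), 0.84 for *RSAD2* (0.37) and 0.93 for *IFI44L* (0.22).

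The 3 genes went up and down together in the same pigs. After the effects of sex, batch and weight had been removed, the residuals of *IFIT3* and *RSAD2* correlated at r = 0.834 (Spearman's rho = 0.783), those of *IFIT3* and *IFI44L* at r = 0.644 (rho = 0.647) and those of *RSAD2* and *IFI44L* at r = 0.670 (rho = 0.636), over 102 pigs. Without the 5 pigs farthest from the median of the first gene of each pair, r was 0.776, 0.556 and 0.594 in the same order of pairs. In batch 2 alone r was 0.785 for *IFIT3* and *RSAD2*, 0.578 for *IFIT3* and *IFI44L* and 0.584 for *RSAD2* and *IFI44L*. In batch 3 it was 0.739, 0.647 and 0.807 for these pairs. In the 9 pigs of batch 1 above the gap in *IFIT3* it was 0.893, 0.901 and 0.792. Females gave 0.824, 0.719 and 0.671, and males gave 0.845, 0.586 and 0.678. The pairs share arrays, so the 3 correlations are not independent, and the differences between them were not tested.

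**Figure D2:**
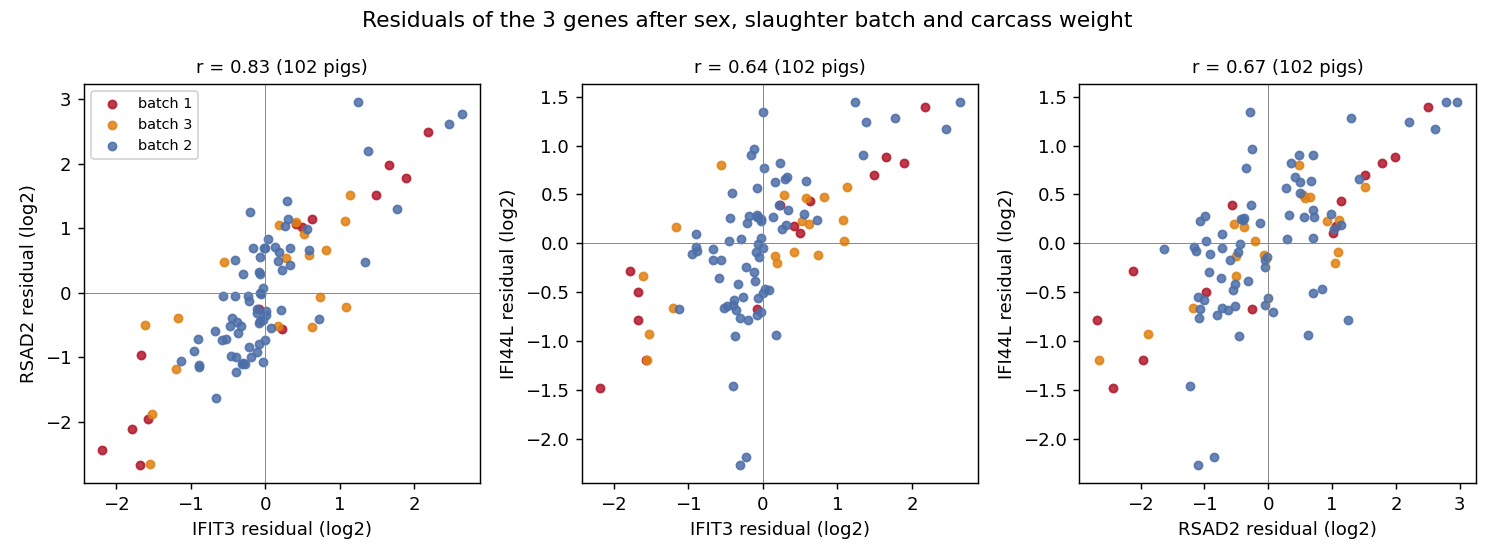
Residual log2 intensity of each pair of genes after sex, slaughter batch and carcass weight (both axes), 1 point per pig, coloured by batch. The pair *IFIT3* and *RSAD2* has the highest r (0.834), and 2 pigs of batch 2 lie far below the others for *IFI44L*.

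The pigs at the top were largely shared. Of the 10 pigs with the highest value of each gene, 7 were common to the lists of *IFIT3* and *RSAD2*, 7 to those of *IFIT3* and *IFI44L*, 6 to those of *RSAD2* and *IFI44L*, and 6 to all 3 lists. The 3 lists together held 16 pigs, 8 of batch 1, 6 of batch 3 and 2 of batch 2. The lists of the 10 lowest pigs had 2 in common to all 3. The pig with the highest *IFIT3* and *RSAD2*, at 7.54 and 8.88, was a female of batch 1 that ranked second for *IFI44L* with 8.73. A male of batch 1 had the highest *IFI44L*, at 8.81, and ranked second for *IFIT3* with 7.26. A female of batch 2 stood out from her batch in all 3 genes, with 6.53 for *IFIT3*, 8.08 for *RSAD2* and 8.07 for *IFI44L*. In other pigs the genes parted. Another female of batch 2 had the highest *RSAD2* (8.32) and *IFI44L* (8.12) of that batch, but ranked 24 among all pigs for *IFIT3*, with 5.17.

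Probes of the same gene differed in how well they followed each other. The 2 probes of *RSAD2* had a residual r of 0.877. The first 2 probes of *IFI44L* had r = 0.899, whereas the third had r = 0.372 and 0.287 with them. That probe had a mean of 3.49 and a batch 2 interquartile range of 0.25, and its r with *IFIT3* was 0.301, against 0.644 and 0.613 for the other 2. Its correlation with *RSAD2* was 0.513. Probes differ in affinity, so levels were not compared between genes or probes.

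Heavier pigs had somewhat lower values of the 3 genes. The slope per 10 kg of carcass weight was -0.18 for *IFIT3* (standard error 0.09), -0.20 for *RSAD2* (0.12) and -0.16 for *IFI44L* (0.08), in the fit with sex and batch. The slopes of the 3 remaining probes lay between -0.12 and -0.20. Over all 5450 probes the median slope was 0.00 and 0% passed the threshold for weight. Within batch 2 the slope was -0.23 for *IFIT3* (0.10), -0.27 for *RSAD2* (0.14) and -0.22 for *IFI44L* (0.11). It was -0.23 (0.46), -0.11 (0.54) and -0.04 (0.25) in batch 1, and -0.10 (0.20), -0.20 (0.24) and -0.09 (0.12) in batch 3, for *IFIT3*, *RSAD2* and *IFI44L*. Batch 2 also held the heavier pigs, and without batch and sex in the fit the slopes were -0.46 for *IFIT3*, -0.48 for *RSAD2* and -0.39 for *IFI44L*.

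**Figure D3:**
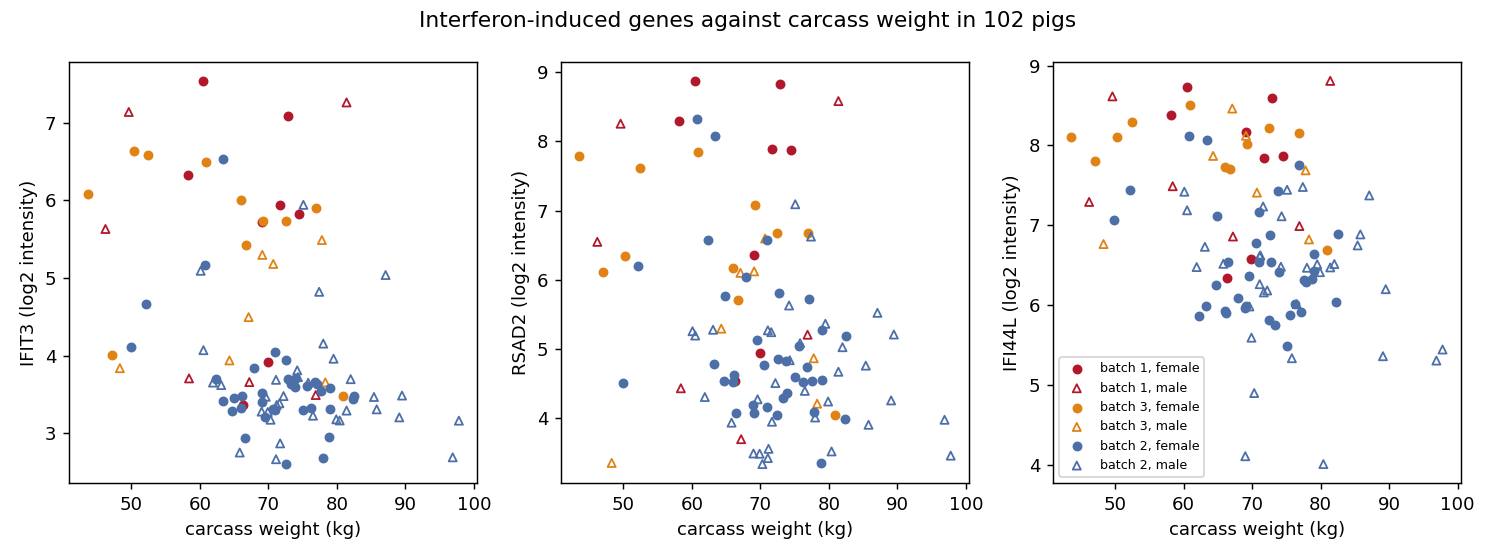
Log2 intensity of each gene (y axis) against carcass weight in kg (x axis), 1 point per pig, coloured by batch, with females filled and males open. The highest values lie mostly in pigs of batches 1 and 3, and the fitted slopes within batch 2 were -0.23, -0.27 and -0.22 per 10 kg for *IFIT3*, *RSAD2* and *IFI44L*.

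Sex had no part in the choice of the genes and was tested. *RSAD2* rose in females: the mean was 5.65 ± 1.47 in the 55 females, against 4.88 ± 1.22 in the 47 males (SD), and the fitted difference was 0.59 (standard error 0.23; limma, adjusted p = 0.0457 over all probes). Its second probe gave 0.30 (0.17, adjusted p = 0.175). *IFIT3* averaged 4.33 ± 1.32 in females and 3.95 ± 1.05 in males, with a fitted difference of 0.20 (0.18, limma adjusted p = 0.440). *IFI44L* averaged 6.98 ± 0.94 in females and 6.65 ± 1.02 in males, with a fitted difference of 0.17 (0.15, limma adjusted p = 0.424). So 1 of 6 probes passed, where 26.1% of all tested probes passed for sex and 11.7% with higher values in females.

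The sex difference of *RSAD2* did not pass the threshold in batch 2 alone (limma adjusted p = 0.360), without batch 1 (0.47, adjusted p = 0.0973), with array weights (0.49, adjusted p = 0.104) or without the least concordant array (0.58, adjusted p = 0.0519). By batch it was 1.13 (1.07) in batch 1, 1.22 (0.56) in batch 3 and 0.29 (0.25) in batch 2. The difference in weight slope between females and males was -0.52 per 10 kg for *RSAD2* (standard error 0.24, limma adjusted p = 0.522), with a slope of -0.51 (0.18) in females alone and 0.01 (0.17) in males alone. It was -0.28 (0.19) for *IFIT3*, with a slope of -0.35 (0.14) in females alone and -0.07 (0.13) in males alone. It was -0.12 (0.16) for *IFI44L*, with a slope of -0.23 (0.11) in females alone and -0.10 (0.12) in males alone. None of the 6 probes passed a test of sex by weight or sex by batch, and among all 5450 probes 0 passed the first and 0 the second (limma), while 468 and 552 had an unadjusted p under 0.05.

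The genes that followed *IFIT3*, *RSAD2* and *IFI44L* were sought by adding the standardised residual of 1 of them at a time to the fit. The residual of *IFIT3* was followed by 289 of 5449 probes, 5.3% of those tested, and 260 of them (4.77%) moved in the same direction. That of *RSAD2* was followed by 77 probes, 1.41%, of which 70 (1.28%) in the same direction. That of *IFI44L* was followed by 1803 probes, 33.1%, of which 979 (18%) in the same direction. The median size of r over all probes was 0.097 for *IFIT3*, 0.0882 for *RSAD2* and 0.184 for *IFI44L*.

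The count of *IFI44L* varied most with other measures of the arrays. Its residual correlated with the residual actin difference at r = -0.304 over 102 pigs, against -0.229 for *IFIT3* and -0.085 for *RSAD2*. The order of the genes differed by batch. In batches 1, 3 and 2 this r was -0.356, -0.381 and -0.291 for *IFI44L*. It was -0.272, -0.530 and -0.067 for *IFIT3*, and -0.493, -0.235 and 0.130 for *RSAD2*. With the actin difference in the fit, 595 probes followed *IFI44L*, 180 *IFIT3* and 78 *RSAD2*. With the first 2 principal components of all probes, 312 probes followed *IFI44L*, 503 *IFIT3* and 177 *RSAD2*. Without the 2 pigs farthest from its median, 1186 probes followed *IFI44L*. In batch 2 alone the counts were 1713 for *IFI44L*, 60 for *IFIT3* and 33 for *RSAD2*.

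The annotated probes with the largest r were then described, with the probes of the 3 genes themselves left out. Probes not named with 1 gene symbol reached larger r, up to 0.819 with *IFIT3*, 0.818 with *RSAD2* and 0.768 with *IFI44L*. The 8 annotated probes with the largest positive r with *IFIT3* had r from 0.724 to 0.782, those with *RSAD2* from 0.711 to 0.805 and those with *IFI44L* from 0.596 to 0.739. All had the same sign in each of the 3 batches, and in batch 2 alone r ranged from 0.629 to 0.750 for *IFIT3*, from 0.605 to 0.784 for *RSAD2* and from 0.571 to 0.697 for *IFI44L*. Spearman's rho ranged from 0.607 to 0.786 over the 24 values. Each had a permutation p of 1e-05 for both r and rho, the smallest that 100000 permutations can give. They were chosen for their size in these pigs, so these p-values are no separate check. The limma adjusted p-values given below for following the 3 genes come from the same values and are no separate check either.

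Among the probes with 1 gene symbol, *MX1*, a dynamin-like GTPase that blocks viral replication, had the largest r with *IFIT3* (0.782; slope 0.52 per SD of *IFIT3*, standard error 0.04, limma adjusted p = 1.51e-18). *EIF2AK2*, the kinase PKR that halts translation when it binds double-stranded RNA, had the largest r of these probes with *RSAD2* (0.805; slope 0.39, standard error 0.03, adjusted p = 1.56e-19). *IFIT1*, the partner of IFIT3, had the largest r of these probes with *IFI44L* (0.739; slope 0.43, standard error 0.04, adjusted p = 5.06e-15). A second probe of *IFIT1* had r of 0.725 with *IFIT3*, 0.711 with *RSAD2* and 0.701 with *IFI44L*. *ISG15*, a ubiquitin-like modifier, followed *IFIT3* with r = 0.748, *RSAD2* with r = 0.750 and *IFI44L* with r = 0.513. Its slopes were 0.74 per SD of *IFIT3* and 0.74 per SD of *RSAD2* (0.07 each).

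*ISG12(A)*, an interferon-inducible gene of the IFI27 family, had r of 0.724 with *IFIT3*, 0.774 with *RSAD2* and 0.648 with *IFI44L*. *PLAC8* had r of 0.754, 0.711 and 0.588 in that order. Its log2 intensity was low, with a median of 3.66 in batch 1, 3.74 in batch 3 and 2.31 in batch 2. The locus LOC733579 had r of 0.764 with *IFIT3*, 0.733 with *RSAD2* and 0.733 with *IFI44L*, and LOC100519098 had r of 0.701 with *IFI44L*. *PARP9*, an ADP-ribosyltransferase family member that acts in interferon signalling, had r = 0.682 with *IFI44L*, and *ALCAM*, a cell adhesion molecule, r = 0.596.

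At the head of each list, the probes that moved against the 3 genes had r of smaller size than those that moved with them. The 4 annotated probes with the most negative r with *IFIT3* were *RORA*, a nuclear receptor (-0.425, limma adjusted p = 0.0011), *EFR3A* (-0.370), LOC100157453 (-0.362) and *CPEB4* (-0.359), all past the threshold. In batch 2 alone *RORA* had r of -0.09. With *RSAD2* they were *FOXO1*, a transcription factor of fasting and muscle atrophy (-0.358, limma adjusted p = 0.0238), *GPANK1* (-0.354), *TXLNG* (-0.341) and *ALYREF* (-0.337), of which the last 2 did not pass. With *IFI44L* they were *TMEM140* (-0.483, limma adjusted p = 2.69e-05), *MED9* (-0.473), *UBE4B* (-0.466) and *OSER1* (-0.461).

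A set of 62 probes followed all 3 genes in 1 direction, 60 with them (1.1%) and 2 against them (0.0367%), together 1.14% of the 5444 probes that are not probes of these genes. Of the 60, 35 carry 1 gene symbol and 25 none. In 20 of them r was above 0.5 with each of the 3 genes. The 11 of these with a symbol were both probes of *IFIT1*, *LOC733579*, *EIF2AK2*, LOC100519098, *ISG12(A)*, *PARP9*, *PLAC8*, *OAS1*, *ISG15* and *MX1*. The probe that followed all 3 most closely has no symbol (r of 0.805, 0.794 and 0.768 with *IFIT3*, *RSAD2* and *IFI44L*). *FOXO1* and 1 unnamed probe moved against all 3. The count was 24 in batch 2 alone, of which 23 were among the 62, and 27 without batch 1, of which 25 were.

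Lists of interferon-system genes were then set against these shares. They held 178 symbols, of which 37 were measured besides the 3 genes. Of 82 listed effectors 14 were measured. The lists were drawn up with earlier results of these data known, so the counts are a description and no separate check. Of the 14 induced effectors, 9 followed *IFIT3* (median r 0.467), 10 followed *RSAD2* (median r 0.418) and 11 followed *IFI44L* (median r 0.467), all in the same direction, where 4.77%, 1.28% and 18% of all tested probes did so. The medians over all tested probes were 0.0153, 0.0193 and 0.0021 for these genes. The 9 effectors that followed all 3 were *MX1*, *EIF2AK2*, *IFIT1*, *ISG15*, *PARP9*, *OAS1*, *GBP1*, *IFIT2* and *GBP2*. *OAS1*, which makes the second messenger that activates RNase L, had r of 0.625, 0.674 and 0.536 with *IFIT3*, *RSAD2* and *IFI44L*. The guanylate-binding proteins *GBP1* and *GBP2* had r between 0.370 and 0.507. *TNFSF10*, the death ligand TRAIL, had r of 0.422 with *RSAD2* and 0.380 with *IFI44L*, and of 0.296 with *IFIT3*, where it did not pass (limma adjusted p = 0.0521). *CXCL9* passed with *IFI44L* (0.241). The mean over the 14 effectors ranged from 5.50 to 7.26 in batch 1, from 5.32 to 6.78 in batch 3 and from 5.10 to 6.90 in batch 2, with a residual r of 0.821 with *IFIT3*, 0.792 with *RSAD2* and 0.735 with *IFI44L*. *NT5C3A*, *LAP3* and *N4BP1* passed with none of the 3, with r between -0.11 and 0.15.

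**Figure D4:**
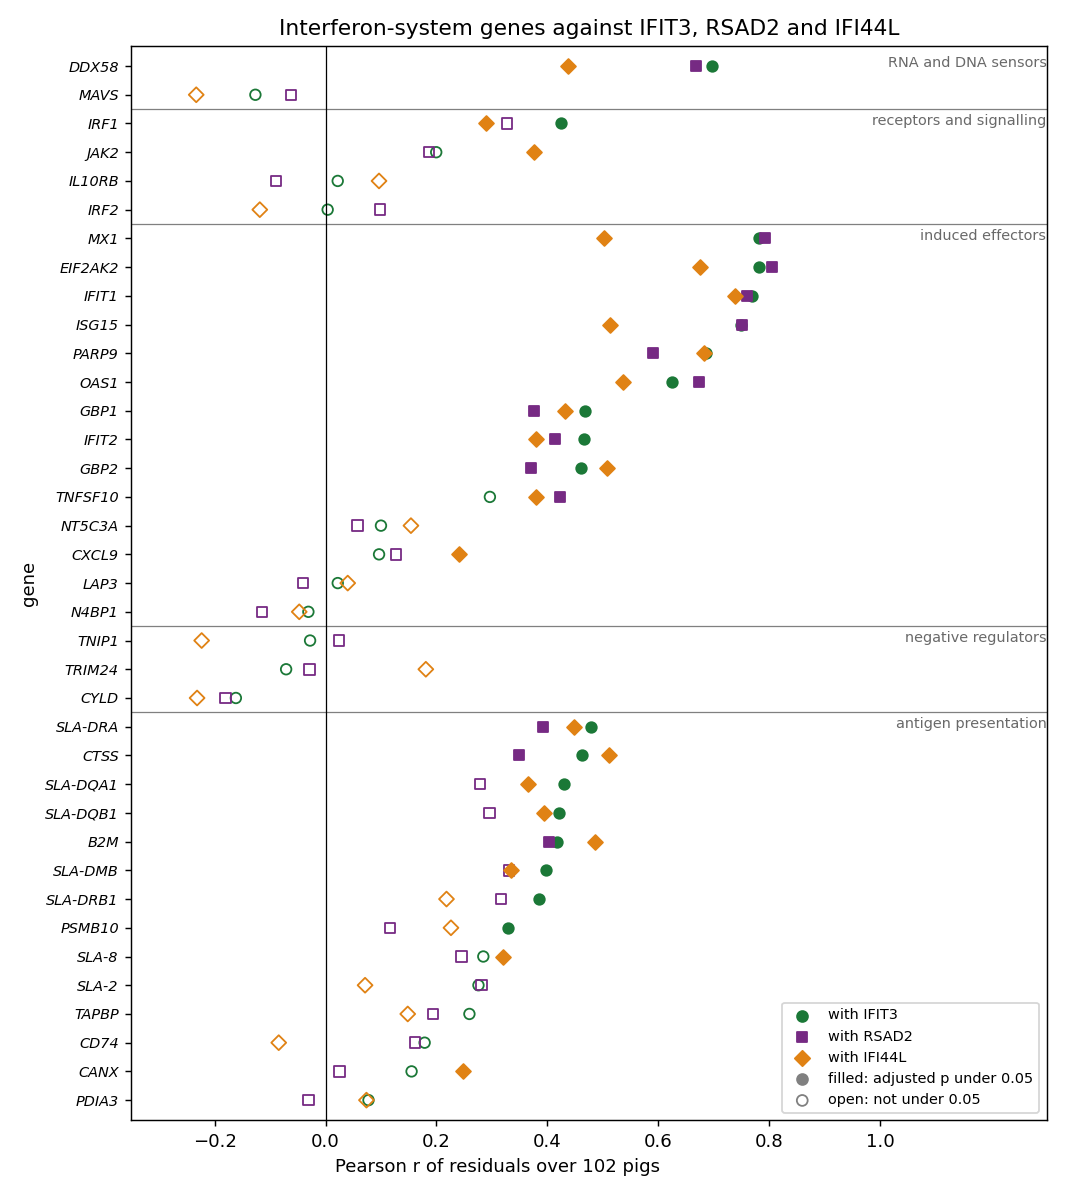
Pearson r of the residuals of 37 interferon-system genes (y axis, by list) with those of *IFIT3*, *RSAD2* and *IFI44L* (x axis), over 102 pigs, filled where the limma adjusted p was under 0.05. Effectors from *MX1* to *GBP2* lie to the right for all 3 genes. Of the 2 measured sensor genes *DDX58* follows all 3, and the 3 measured negative regulators lie between -0.23 and 0.18.

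Only 2 of the 21 listed sensor genes were measured. *DDX58*, which encodes the RNA sensor RIG-I, had r of 0.696 with *IFIT3*, 0.668 with *RSAD2* and 0.436 with *IFI44L*, all past the threshold. *MAVS*, the adaptor below it, had r of -0.13, -0.06 and -0.23, none past the threshold. Of 4 receptor and signalling genes, *IRF1*, a transcription factor, followed *IFIT3* (0.424) and *IFI44L* (0.289). The kinase *JAK2* followed *IFI44L* (0.376). *IL10RB* and *IRF2* followed none of the 3. The negative regulators *TNIP1*, *TRIM24* and *CYLD* followed none.

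Of 14 antigen presentation genes, 8 followed *IFIT3* (median r 0.357), 3 followed *RSAD2* (0.280) and 8 followed *IFI44L* (0.284). Of all tested probes, 4.77%, 1.28% and 18% followed these genes in the same direction, and 5.3%, 1.41% and 33.1% in either. *SLA-DRA*, a class II chain, had r of 0.478, 0.393 and 0.448. *CTSS*, the protease that trims the invariant chain, had 0.462, 0.349 and 0.510. *B2M*, the shared light chain of class I, had 0.417, 0.402 and 0.485. These 3 passed with all 3 genes. *CD74*, the invariant chain itself, passed with none (0.179, 0.161 and -0.08).

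In RefSeq's order of genes on the Sscrofa11.1 assembly, *IFIT3* lies between *IFIT2* and *IFIT1*, and both followed it, with r of 0.466 and 0.769. Of the 2 other measured genes within 5 places of it, *PANK1* had r = 0.297 (limma adjusted p = 0.0469) and *LIPA* r = 0.230 (adjusted p = 0.174). *RSAD2* lies beside *CMPK2* and *IFI44L* beside *IFI44*, which are not analysed here. The measured neighbours of *IFI44L* were *ADGRL4* (0.284, adjusted p = 0.0212) and *PTGFR* (0.101, adjusted p = 0.433). The IFIT genes resemble each other in sequence, and whether their probes bind each other's transcripts was not tested.

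The other interferon-system genes were next compared by batch. Of 14 effectors, 12 passed for batch, as did 86.6% of all tested probes. Of these effectors 9 had positive fitted differences from batch 2 in both batches 1 and 3, as did 36.5% of all tested probes. Negative fitted differences in both were found for 2, as for 45% of all tested probes. Both differences were tested together and neither alone, and some of those of batch 3 were near 0. The median difference of the list was 0.63 for batch 1 and 0.22 for batch 3, each against batch 2, where the medians over all probes were -0.11 and -0.17. Over the 37 genes 34 passed, 18 with positive fitted differences in both and 13 with negative ones in both. The shares of all tested probes were the same 86.6%, 36.5% and 45%.

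*IFIT1* had a mean of 7.97 ± 0.96 in batch 1 and 7.62 ± 0.56 in batch 3, against 6.90 ± 0.52 in batch 2 (SD), with differences from batch 2 of 0.96 (standard error 0.18) and 0.59 (0.16). *PARP9* had a mean of 4.92 ± 0.82 in batch 1 and 5.08 ± 0.70 in batch 3, against 3.95 ± 0.48 in batch 2, 0.95 (0.17) and 1.11 (0.16) above batch 2. *IFIT2* was 0.81 (0.16) and 0.42 (0.14) above batch 2. Like *IFIT3*, *RSAD2* and *IFI44L*, these genes were higher than batch 2 in both other batches.

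Others were higher in batch 1 but close to batch 2 in batch 3. *ISG15* had a mean of 5.82 ± 1.48 in batch 1 and 4.82 ± 0.96 in batch 3, against 4.48 ± 0.91 in batch 2, with differences from batch 2 of 1.25 (0.30) and 0.23 (0.28; limma adjusted p = 0.000432 over both differences). *MX1* gave 0.75 (0.20) and 0.04 (0.19), and *EIF2AK2* gave 0.56 (0.15) and 0.01 (0.14). *OAS1* differed by 0.17 (0.28) and 0.34 (0.26) and did not pass (limma adjusted p = 0.418). *LAP3*, an aminopeptidase, fell by 0.57 and 0.91 in batches 1 and 3 against batch 2, and *N4BP1* by 0.80 and 0.70. The sensor adaptor *MAVS* had a mean of 3.84 ± 0.91 in batch 1 and 3.90 ± 0.93 in batch 3, against 6.36 ± 0.78 in batch 2.

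**Figure D5:**
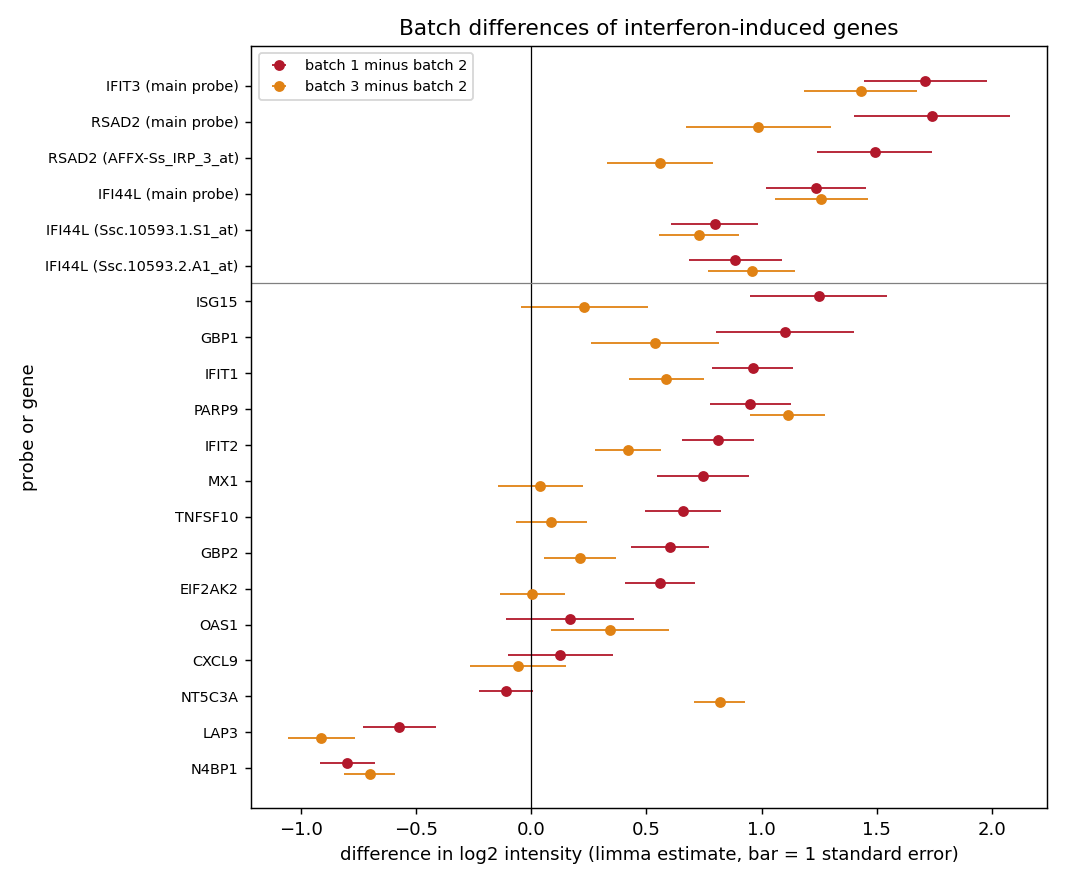
Fitted difference in log2 intensity (x axis, bars show 1 standard error) of batch 1 and batch 3 from batch 2, for the 6 probes of *IFIT3*, *RSAD2* and *IFI44L* (above the line) and 14 other interferon-induced effectors (below it). All 6 probes lie above 0 in both batches, while *ISG15*, *MX1* and *EIF2AK2* lie above 0 in batch 1 and near 0 in batch 3.

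None of the 37 genes passed for carcass weight, and 0 of all tested probes did (limma; 1 of the 37, *MAVS*, with array weights). The median slope of the effectors was -0.05 per 10 kg and that of antigen presentation genes 0.00. For sex 6 of the 37 passed, where 26.1% of all probes did. *EIF2AK2* (0.27, standard error 0.10, limma adjusted p = 0.0369), *TNFSF10* (0.30, 0.11, adjusted p = 0.0379), *JAK2* (0.29, 0.09) and *SLA-DMB* (0.30, 0.11) were higher in females. *CYLD*, a deubiquitinase that restrains RIG-I (-0.48, 0.11, limma adjusted p = 0.00078), and *TAPBP* (-0.33, 0.12) were lower in females.

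Markers of other cell types were set beside the shares of all tested probes that followed each gene in the same direction, 4.77% for *IFIT3*, 1.28% for *RSAD2* and 18% for *IFI44L* (33.1% in either direction). Of 9 measured macrophage genes, 2 followed *IFIT3* (*AIF1*, r = 0.385, and *LAPTM5*, r = 0.316), 0 followed *RSAD2* and 2 followed *IFI44L*. Their mean log2 intensity ranged from 3.30 to 7.03 in batch 1, from 3.87 to 5.49 in batch 3 and from 3.64 to 6.55 in batch 2. Of 7 endothelial genes, 4 followed *IFIT3*, 1 *RSAD2* and 3 *IFI44L*, led by *CDH5*, the junction protein VE-cadherin, with r of 0.463, 0.375 and 0.275. Their mean ranged from 5.87 to 7.29 in batch 1, from 5.63 to 6.72 in batch 3 and from 5.64 to 8.22 in batch 2. *JCHAIN*, the 1 measured gene of plasma cells, had r of 0.195, 0.186 and 0.383, passing with *IFI44L*. *FCGR3A*, the 1 measured gene of the neutrophil list, passed with *IFI44L* (0.247), and it was not examined which cells expressed it. Of 10 matrix genes, 2, 0 and 1 followed *IFIT3*, *RSAD2* and *IFI44L*, and of 9 muscle fibre genes 1, 0 and 1, while 2 muscle fibre genes moved against *IFI44L*. No gene of the lists for T and NK lymphocytes or for red blood cells was among the named probes analysed here. The part of these cells in the movement of the 3 genes was not tested.

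Of 11 immediate-early and stress genes 0 moved in the same direction as any of the 3 genes, where 4.77% of all tested probes did so with *IFIT3*, 1.28% with *RSAD2* and 18% with *IFI44L*. *GADD45A* moved against *RSAD2* (-0.328, limma adjusted p = 0.0489) and, with 2 others, against *IFI44L*. Of all 5449 tested probes, 7 moved against *RSAD2* and 824 against *IFI44L*. Of 5 adipocyte genes 1 moved against *IFI44L* (*GPD1*, r = -0.275), and none passed with *IFIT3* or *RSAD2*.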

How the data were processed

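RNA of 102 *Longissimus dorsi* samples, 1 per pig, was hybridised to Affymetrix porcine arrays. The authors summarised the arrays with GCOS 1.1.1, checked them with AffyPLM and normalized them with GCRMA in BRB-ArrayTools, and the deposited values are log2 intensities of 5493 probes that passed their filter on variability. For GCRMA a version is not given in the sources used. Such a filter removes stable genes, so shares refer to variable probes.

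The 43 control probes other than AFFX-Ss_IRP_3_at were left out and 5450 probes tested. The annotation gave 1 symbol to 2640 of them, several to 49 and none to 2761, and only probes with 1 symbol were named. Values were fitted in limma 3.58.1 (R 4.3.3) on sex, slaughter batch (groups as labelled) and carcass weight per 10 kg, with Benjamini-Hochberg adjustment over all probes and a threshold of 0.05. Batch was tested by a moderated F over both differences from batch 2. Probes following a gene were tested on the standardised residual of that gene, and r is the Pearson correlation of residuals. Permutation tests were two-sided with 100000 permutations. Relatedness among the pigs was not modelled, so p-values may be too small.

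The 3 genes and the gene lists were chosen with earlier results of these data known. Named genes were all probes of the 3 genes, measured genes of 5 interferon-system lists that passed any test (at most 12 per list), the 8 named probes with the largest positive r and the 4 with the largest negative r per gene, and up to 3 per cell type list. The effectors *TNFSF10* and *CXCL9* were named beyond the limit of 12, so that all 14 measured effectors are given. The genes found to follow all 3, and *LIPA*, *PANK1*, *ADGRL4* and *PTGFR* as neighbours, were named after their values were seen. The fits were checked on simulated data. Alternatives changed the normalization, covariates, weights, filter, pigs or arrays. Sequences and promoter motifs were not analysed here. Gene names and neighbours come from RefSeq, where 2620 of the named probes matched; array coordinates were not used.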

Additional observations from a re-analysis of the deposited data

How the results depend on the processing

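The count of probes following *IFIT3* (289) was 185 after quantile normalization, 177 with age, 180 with the actin difference, 60 in batch 2 alone, 503 with 2 principal components, 124 without the 5 pigs farthest from the median, 130 on Spearman ranks and 122 without batch 1. That of *RSAD2* (77) was 33 in batch 2 alone, 177 with 2 principal components, 45 without 5 pigs and 40 without batch 1. That of *IFI44L* (1803) was 595 with the actin difference, 955 with array weights, 312 with 2 principal components, 1186 without 2 pigs and 1120 without 5 pigs. The count following all 3 (62) was 24 in batch 2 alone, 107 with 2 principal components, 35 without 5 pigs and 27 without batch 1. The causes were not tested, and batch 2 alone and the removal of pigs also leave fewer samples. The settings without batch 1 and without the least concordant array were chosen after seeing the data. The mean r of the 3 pairs (0.716) was 0.819 on raw values and 0.937 in batch 1 alone, which has a gap in *IFIT3*. Of the 37 interferon-system genes, 0 passed for carcass weight, 1 with array weights and 22 without sex and batch in the fit.

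A turn of sign was counted only where the main or the alternative fit passed the threshold. Such turns were found for *NT5C3A* and *PSMB10* after quantile normalization (batch 1 minus batch 2 of 0.0707 and 0.00292) and for *SLA-2* with the actin difference (0.0373). They were also found for *B2M* without other covariates (slope -0.115 per 10 kg) and for *CD74* with 2 principal components (r with *IFI44L* of 0.394). Of 1753 recomputed correlations of named genes, 1625 kept their side of the threshold without such a turn. For sex 456 of 468 recomputed differences did, and for batch 277 of 292. These counts include values whose sign turned while neither fit passed. For example, the female minus male difference of *IFIT3* was -0.11 in batch 2 alone, against 0.20 in the main fit. Of 81 recomputed batch differences and slopes of the 3 genes, 26 moved by more than the main standard error. No paired analysis was possible because each pig belongs to 1 batch and has a number of its own. Low log2 values near background limit *PLAC8* and the third *IFI44L* probe, and others as well. In batch 2 the median was 3.48 for *IFIT3* and 3.60 for the second *RSAD2* probe. Means over all pigs were low for *DDX58* (3.78), *IRF1* (3.52) and *CXCL9* (3.31). Whether such low values narrowed the spread of *IFIT3* in batch 2 or its differences between batches was not tested.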
